A study of Homo sapiens with 15 samples.

Results

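The 10 genes described here are CCNG2, TSC22D3, PIK3IP1, IRS2, BCL6, KLHL24, INSR, FOXO1, FOXO3 and FOXO4, which belong to or are known targets of the insulin, PI3K, AKT and FOXO pathway. They make up 10 of the 17687 genes measured on whole-transcript Affymetrix arrays, and each has 1 probe set. CCNG2 and TSC22D3 were chosen by their rises with PF-543 on these same arrays, so every value of these 2 genes in which PF-543 is the added drug is a description and was not tested. The other 8 genes were taken as pathway members.

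The arrays held RNA from C42B cells, a castration-resistant prostate cancer line derived from LNCaP, grown for 3 days in medium with serum and then treated for 6 h. There were 3 arrays of enzalutamide (10 µM) plus PF-543 (15 µM), 3 of PF-543 (15 µM), 3 of enzalutamide (10 µM) plus ABC294640 (15 µM), 1 of ABC294640 (15 µM), 2 of enzalutamide (10 µM) and 3 of DMSO vehicle (0.125%), 15 arrays in 6 groups. Enzalutamide blocks the androgen receptor, PF-543 inhibits sphingosine kinase 1, and ABC294640 (opaganib) was developed as an inhibitor of sphingosine kinase 2. All groups came from this single line, and the labels do not say whether arrays of a group came from separate experiments, so the spread between them may be technical. Of the luminal prostate markers checked, 7 were measured and all 7 lay above the median of all genes, while the 2 basal keratins, KRT5 and KRT14, lay below the first quartile. Of the markers of other cell types measured, 1 of 4 fibroblast genes (COL1A2, at 9.15), 0 of 3 leukocyte, 0 of 3 endothelial and 0 of 2 neuroendocrine genes lay above the median. The mean levels of PIK3IP1, IRS2, INSR, FOXO1 and FOXO4 lay at percentiles 39.0 to 45.1 of all genes. The leukocyte genes PTPRC and CD3E lay near them, at 38.2 and 46.5, and LYZ lower, at 27.1. Whether the signal of these members stood above background was not shown. The DMSO arrays stood somewhat apart: the mean correlation over genes was 0.9949 between DMSO and treated arrays and 0.9959 between treated arrays of different groups. In these bulk samples fewer cells of a kind and less RNA per cell cannot be told apart.

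Insulin and growth factors act through their receptors and the IRS adaptors on PI3K, which activates the kinase AKT. AKT phosphorylates the FOXO transcription factors and holds them in the cytoplasm, and when AKT activity falls they enter the nucleus and switch on genes for growth arrest, for inhibition of PI3K and for the insulin receptor and its adaptors. FOXO activity is thus set mostly by the position and phosphorylation of the protein, which these RNA measurements do not show.

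To show what the letters near the start sites of the genes hold, the RefSeq windows from 250 bases before to 50 bases after each annotated start (GRCh38.p14) were searched on both strands for the FOXO motif TGTTTAC, the steroid receptor motif TGTTCT and the ATF4 motif TGATGNAA. The 10 genes had 18 windows. CCNG2, whose gene spans chr4:77157207-77170060 on the plus strand, had 1 window and none of the 3 motifs in it. TSC22D3 spans chrX:107713221-107775988 on the minus strand, and 1 of its 4 windows held the FOXO motif at bases −147 to −141 from the start. Its other windows held none of the 3 motifs. PIK3IP1 spans chr22:31281593-31292534 on the minus strand, and one of its windows held the FOXO motif at bases 16 to 22 after the start and the steroid receptor motif, as its reverse complement, at bases 24 to 29. The windows below are shown because CCNG2 and TSC22D3 are the genes chosen on PF-543 and the PIK3IP1 window holds the 2 motifs side by side. Of the TSC22D3 windows only the one with the motif is shown, and capitals mark the motifs.
CCNG2 promoter, chr4:77156957-77157256, plus strand: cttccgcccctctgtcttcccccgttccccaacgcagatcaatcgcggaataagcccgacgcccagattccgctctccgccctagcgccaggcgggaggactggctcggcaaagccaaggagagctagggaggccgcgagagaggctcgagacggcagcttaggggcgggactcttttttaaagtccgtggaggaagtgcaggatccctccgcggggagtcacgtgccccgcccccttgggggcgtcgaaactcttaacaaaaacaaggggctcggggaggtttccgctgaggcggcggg
TSC22D3 promoter, chrX:107717013-107717312, minus strand: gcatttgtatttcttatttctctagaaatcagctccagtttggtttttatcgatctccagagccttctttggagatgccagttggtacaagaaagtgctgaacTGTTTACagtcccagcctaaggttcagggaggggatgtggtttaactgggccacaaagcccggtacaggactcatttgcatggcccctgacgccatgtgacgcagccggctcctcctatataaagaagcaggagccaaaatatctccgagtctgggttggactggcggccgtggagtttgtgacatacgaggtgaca
PIK3IP1 promoter, chr22:31292439-31292738, minus strand: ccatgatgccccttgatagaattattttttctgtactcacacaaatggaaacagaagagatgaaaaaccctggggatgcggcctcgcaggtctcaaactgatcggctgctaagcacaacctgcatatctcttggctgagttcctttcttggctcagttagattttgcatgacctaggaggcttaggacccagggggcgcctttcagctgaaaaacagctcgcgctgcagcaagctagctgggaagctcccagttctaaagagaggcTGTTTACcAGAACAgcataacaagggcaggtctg
The FOXO motif lay in 3 of the 18 windows (TSC22D3, PIK3IP1 and FOXO4), against 3.42% of all 35114 windows. The steroid receptor motif also lay in 3 of the 18 windows (BCL6 and 2 of PIK3IP1), against 14.8% of all windows, and the ATF4 motif in 1 of 18 (BCL6), against 3.62%. Only the spellings given above were searched, so a window without a match, as for CCNG2, may hold other forms of these motifs. A probe set covers several transcripts, so which start the cells used was not measured, and a motif match is not a binding site.

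CCNG2 encodes cyclin G2, an atypical cyclin linked to cell cycle arrest and a textbook FOXO target. Its log2 levels were 10.33, 10.39 and 10.37 on the 3 arrays of enzalutamide plus PF-543, 9.71, 9.91 and 9.83 with PF-543, 9.71, 9.58 and 9.62 with enzalutamide plus ABC294640, 9.16 on the ABC294640 array, 9.87 and 9.50 with enzalutamide, and 9.13, 8.92 and 9.10 with DMSO. The combination of enzalutamide with PF-543 was highest on every array, PF-543 alone overlapped with enzalutamide alone, which in turn overlapped with enzalutamide plus ABC294640, and DMSO was lowest. The ABC294640 array lay just above the DMSO range.

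TSC22D3 encodes GILZ, a leucine zipper protein known for its induction by glucocorticoids and by FOXO3. Its log2 levels were 11.58, 11.88 and 11.86 with enzalutamide plus PF-543, 11.31, 11.44 and 11.44 with PF-543, 11.06, 10.73 and 11.00 with enzalutamide plus ABC294640, 10.58 on the ABC294640 array, 11.16 and 11.00 with enzalutamide, and 10.77, 10.49 and 10.55 with DMSO. The order of the groups was that of CCNG2 apart from the last places: the ABC294640 array lay inside the DMSO range. Enzalutamide overlapped with enzalutamide plus ABC294640, which also overlapped with DMSO.

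**Figure D1:**
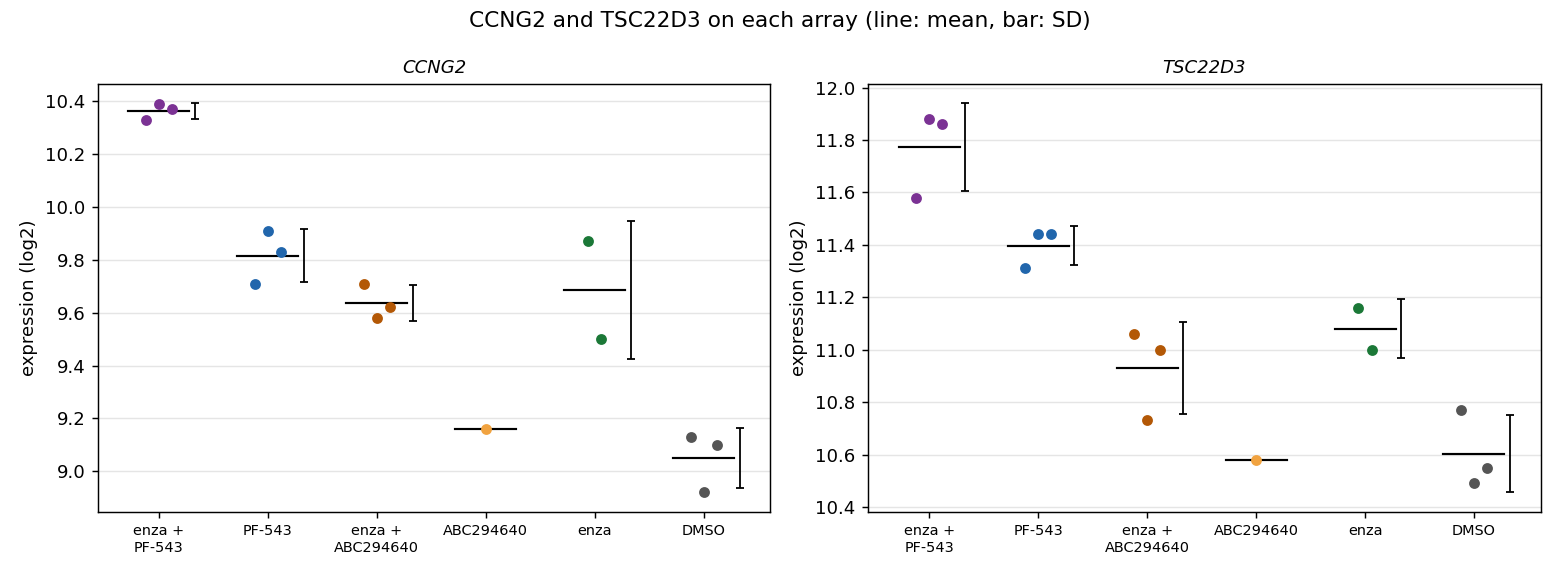
Log2 expression of CCNG2 and TSC22D3 on each of the 15 arrays (points), by treatment (enza stands for enzalutamide), with the group mean (line) and the SD (bar, where a group has over 1 array). The 3 arrays of enzalutamide plus PF-543 sit at the top for both genes, between 10.33 and 10.39 for CCNG2 and between 11.58 and 11.88 for TSC22D3, and DMSO sits at or near the bottom.

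As a description of the choice, CCNG2 was higher with PF-543 than with DMSO by 0.77 (SE 0.11) on the log2 scale, or 1.70-fold, and TSC22D3 by 0.79 (SE 0.12), or 1.73-fold. With enzalutamide present in both groups, the differences for enzalutamide plus PF-543 over enzalutamide were 0.68 (SE 0.12) for CCNG2 and 0.69 (SE 0.13) for TSC22D3. Leaving out either enzalutamide array moved the CCNG2 value to 0.86 or 0.49. The difference of the PF-543 effect with and without enzalutamide was −0.09 for CCNG2 (95% interval −0.43 to 0.26) and −0.10 for TSC22D3 (−0.49 to 0.29). Enzalutamide plus PF-543 stood above DMSO by 1.31 for CCNG2, or 2.48-fold, and by 1.17 for TSC22D3, or 2.25-fold.

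Enzalutamide as the added drug was not named in that choice. CCNG2 averaged 9.69 ± 0.26 with enzalutamide (SD, n = 2) and 9.05 ± 0.11 with DMSO (SD, n = 3), a log2 difference of 0.64 (SE 0.12) with an adjusted p of 0.0459 in limma over all 17687 genes. This call was close to the threshold: the adjusted p was 0.375 when only the arrays of the 2 groups were fitted, and the call was lost without any 1 of the 14 arrays other than ABC294640. Between enzalutamide plus PF-543 and PF-543 alone, the CCNG2 difference was 0.55 (SE 0.11, limma adjusted p = 0.0603) and the 2 groups did not overlap. TSC22D3 showed 0.48 (SE 0.13, limma adjusted p = 0.170) for enzalutamide over DMSO and 0.38 (SE 0.12, limma adjusted p = 0.358) for enzalutamide plus PF-543 over PF-543. The DMSO and PF-543 arrays subtracted here are among those on which these genes were chosen.

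The mean of these 2 enzalutamide differences, computed after the separate values had been seen, subtracts the PF-543 and DMSO arrays with equal weight. It was 0.59 for CCNG2 (95% interval 0.42 to 0.76, limma adjusted p = 0.00246), a 1.51-fold rise, and it stayed past the threshold under all 24 alternative settings, with values of 0.50 to 0.68. For TSC22D3 it was 0.43 (0.23 to 0.62, limma adjusted p = 0.0478), a 1.34-fold rise, and it no longer passed under 15 of the 24 settings, with adjusted p-values up to 0.165. These arrays are not independent of the choice of the 2 genes, and a choice made on enzalutamide plus PF-543 over DMSO would favour a higher mean, so the 2 p-values are no separate support for the genes as a pair.

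The other sphingosine kinase inhibitor, ABC294640, could be set beside PF-543 in the presence of enzalutamide. Enzalutamide plus PF-543 stood above enzalutamide plus ABC294640 by 0.73 (SE 0.11) for CCNG2 and 0.84 (SE 0.12) for TSC22D3, again as a description. Enzalutamide plus ABC294640 differed from enzalutamide alone by −0.05 for CCNG2 (95% interval −0.31 to 0.21) and −0.15 for TSC22D3 (−0.44 to 0.14). The single ABC294640 array differed from DMSO by 0.11 for CCNG2 (−0.22 to 0.44), with the spread borrowed from the other groups. CCNG2 rose with enzalutamide plus ABC294640 over DMSO by 0.59 (SE 0.11, limma adjusted p = 0.0293), a call that was lost without any 1 of the 6 arrays of these groups and that subtracts the DMSO arrays on which CCNG2 was chosen. TSC22D3 differed there by 0.33 (SE 0.12, limma adjusted p = 0.212).

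Among the other known FOXO targets, KLHL24 encodes an adaptor of a ubiquitin ligase that acts on keratin filaments. Its log2 levels were 7.67, 7.68 and 7.80 with enzalutamide plus PF-543, 7.58, 7.33 and 7.98 with PF-543, 6.81, 7.07 and 7.11 with enzalutamide plus ABC294640, 7.29 with ABC294640, 6.97 and 6.99 with enzalutamide, and 7.18, 7.71 and 7.36 with DMSO. The enzalutamide arrays and those of enzalutamide plus ABC294640 were below every other array, and adding PF-543 to enzalutamide went with levels above both enzalutamide arrays. That difference was 0.74 (SE 0.18), or 1.67-fold, with an unadjusted p of 0.0015 and an adjusted p of 0.314 in limma. Enzalutamide plus PF-543 over enzalutamide plus ABC294640 gave 0.72 (SE 0.16, limma adjusted p = 0.335), and enzalutamide over DMSO gave −0.44 (SE 0.18, limma adjusted p = 0.345). PF-543 over DMSO without enzalutamide gave 0.21 (SE 0.16, limma adjusted p = 0.570), with overlapping arrays. The difference of the PF-543 effect with and without enzalutamide was 0.52 (95% interval −0.01 to 1.06), with an adjusted p of 0.628 in limma, so the 2 effects were not shown to differ.

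IRS2, an adaptor that carries the insulin receptor's signal to PI3K, had log2 levels of 5.74, 6.03 and 5.74 with enzalutamide plus PF-543, 6.42, 6.36 and 6.18 with PF-543, 5.99, 5.46 and 5.67 with enzalutamide plus ABC294640, 6.07 with ABC294640, 6.00 and 5.82 with enzalutamide, and 6.23, 6.14 and 6.42 with DMSO. Every array with enzalutamide lay below every array without it, though narrowly: the highest with it was at 6.03 and the lowest without it at 6.07. The mean enzalutamide difference over PF-543 and DMSO was −0.42 (SE 0.11, limma adjusted p = 0.0992), with −0.35 for enzalutamide over DMSO and −0.48 for enzalutamide plus PF-543 over PF-543. Enzalutamide plus ABC294640 over DMSO gave −0.56 (SE 0.14, limma adjusted p = 0.0918). None of these passed the threshold.

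BCL6, a transcriptional repressor and FOXO target, was at 13.59, 13.87 and 13.72 with enzalutamide plus PF-543, 13.45, 13.56 and 13.61 with PF-543, 13.74, 13.75 and 13.85 with enzalutamide plus ABC294640, 13.60 with ABC294640, 13.81 and 13.71 with enzalutamide, and 13.46, 13.48 and 13.38 with DMSO. All 8 arrays with enzalutamide were above all DMSO arrays, and only the lowest of them overlapped with PF-543 and ABC294640. The differences were small: 0.32 (SE 0.10, limma adjusted p = 0.220) for enzalutamide over DMSO, 0.34 (SE 0.09, limma adjusted p = 0.106) for enzalutamide plus ABC294640 over DMSO, and 0.25 (SE 0.07, limma adjusted p = 0.130) for the mean enzalutamide difference. A robust and trended variance prior put these 3 past the threshold, with adjusted p-values of 0.026, 0.004 and 0.0038.

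PIK3IP1 encodes a membrane protein that binds and inhibits the catalytic subunit of PI3K. Its log2 levels were 5.88, 6.13 and 5.83 with enzalutamide plus PF-543, 5.79, 5.81 and 5.75 with PF-543, 5.69, 5.95 and 5.52 with enzalutamide plus ABC294640, 5.69 with ABC294640, 5.89 and 5.40 with enzalutamide, and 5.56, 5.20 and 5.32 with DMSO. The groups with PF-543 lay above DMSO on every array, and the 2 enzalutamide arrays lay far apart. PF-543 over DMSO gave 0.42 (SE 0.15, limma adjusted p = 0.205), and enzalutamide plus PF-543 over DMSO gave 0.59 (SE 0.15, limma adjusted p = 0.0605). The comparison of enzalutamide plus PF-543 with DMSO passed the threshold without either enzalutamide array (adjusted p = 0.0481 each time), under quantile normalization (0.0469) and without the dimmest genes (0.0435). It stayed uncalled under 20 of the 24 alternative settings, with limma adjusted p-values up to 0.183. The enzalutamide arrays are not part of this comparison and enter only its estimate of the spread.

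INSR encodes the insulin receptor, itself a known FOXO target. It was at 6.01, 5.80 and 6.08 with enzalutamide plus PF-543, 6.40, 6.62 and 6.39 with PF-543, 5.34, 6.16 and 6.16 with enzalutamide plus ABC294640, 5.91 with ABC294640, 5.93 and 6.09 with enzalutamide, and 5.80, 5.77 and 6.23 with DMSO. All 3 arrays of PF-543 alone were above the other 12, which overlapped. PF-543 over DMSO gave 0.54 (SE 0.20, limma adjusted p = 0.227), whereas enzalutamide plus PF-543 over enzalutamide gave −0.05 (95% interval −0.53 to 0.44). The difference of these effects, −0.58 (−1.23 to 0.06), had an adjusted p of 0.654 in limma and was not shown.

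The RNA of the FOXO factors themselves showed no called difference. FOXO3 ranged from 10.59 to 11.18 over the 15 arrays and had its lowest mean, 10.67 ± 0.14 (SD, n = 3), with enzalutamide plus ABC294640, against 11.02 ± 0.05 (SD, n = 3) with DMSO, a log2 difference of −0.35 (SE 0.12, limma adjusted p = 0.191). FOXO1 ranged from 5.69 to 6.38 and FOXO4 from 6.15 to 6.69, and for FOXO1 all groups of more than 1 array overlapped. The 2 enzalutamide arrays of FOXO4, at 6.59 and 6.52, lay above all arrays of enzalutamide plus PF-543 (6.34 to 6.49) and of enzalutamide plus ABC294640 (6.36 to 6.39), with differences of −0.15 (limma adjusted p = 0.834) and −0.18 (0.859). With PF-543 over DMSO the differences were −0.03 for FOXO1 (95% interval −0.43 to 0.37), 0.05 for FOXO3 (−0.21 to 0.31) and −0.04 for FOXO4 (−0.30 to 0.23).

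**Figure D2:**
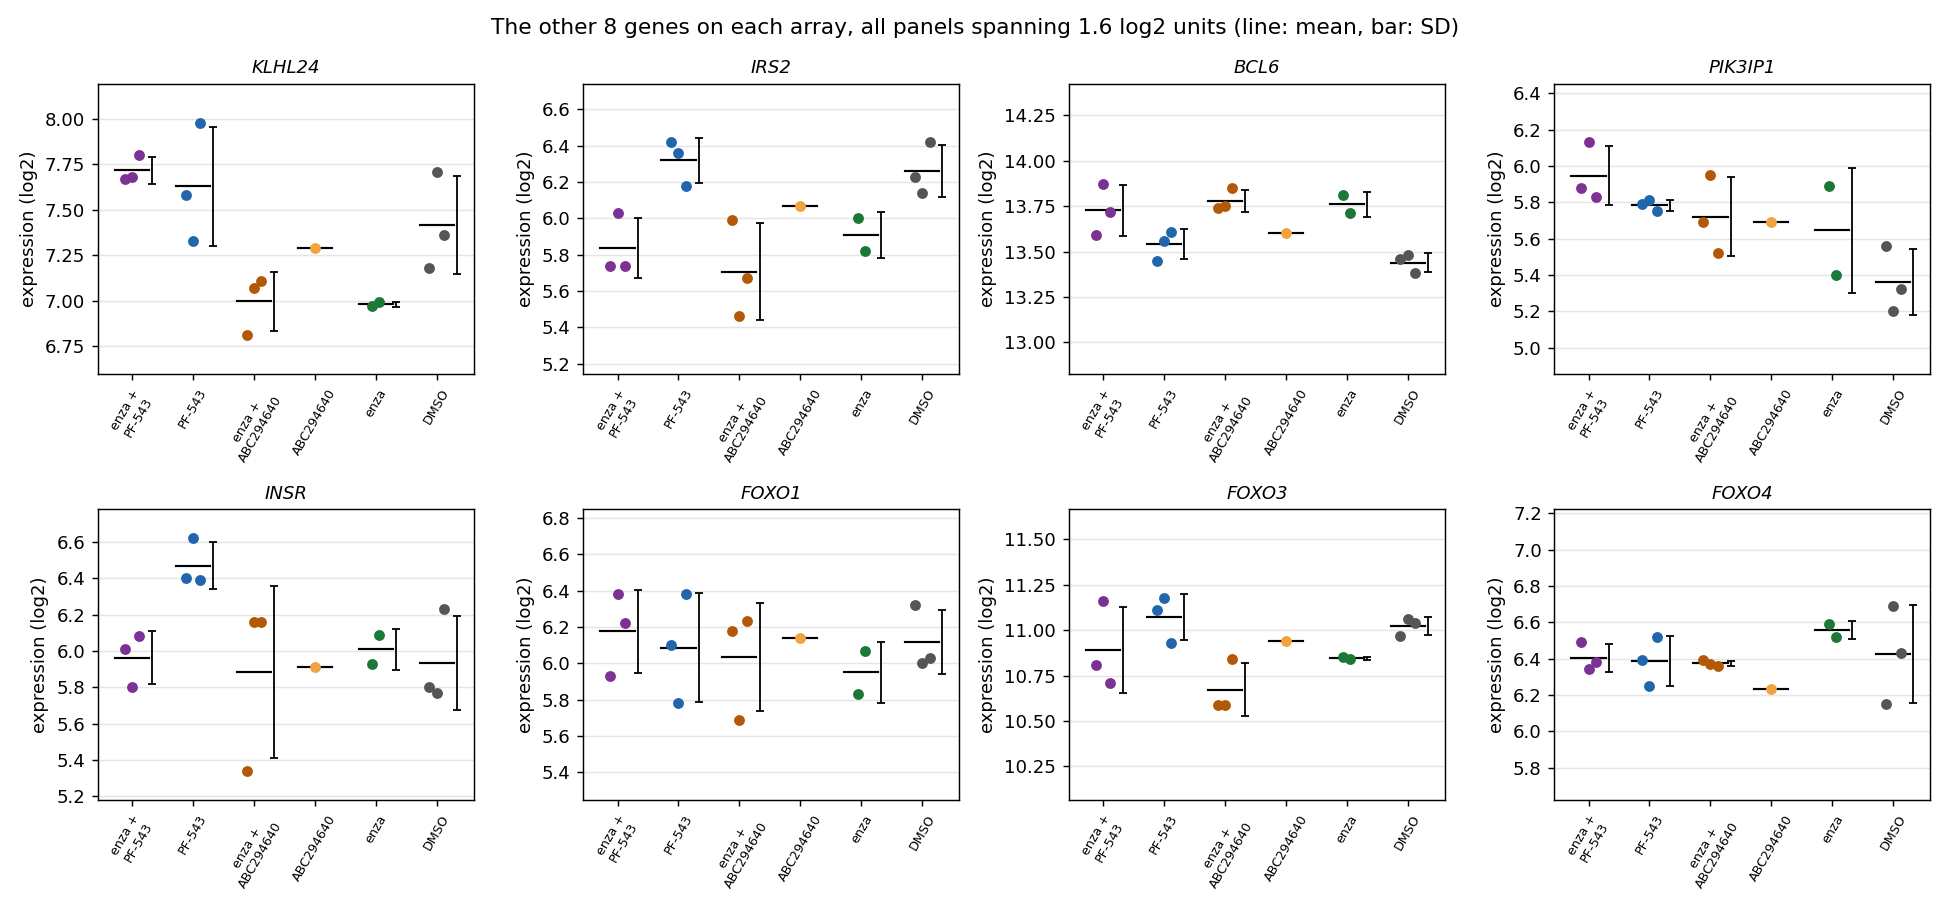
Log2 expression of KLHL24, IRS2, BCL6, PIK3IP1, INSR, FOXO1, FOXO3 and FOXO4 on each array (points), with group mean (line) and SD (bar), every panel spanning the same height in log2 units. IRS2 lies at or below 6.03 on every array with enzalutamide and at or above 6.07 on every array without it, and INSR lies at or above 6.39 on the PF-543 arrays alone.

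Counted together, the 8 genes not chosen on PF-543 gave no call in any comparison in which it was the added drug. With PF-543 over DMSO, 0 of 8 passed in limma, against 0.565% of all genes, 2 of 8 (PIK3IP1 and INSR, both higher) had an unadjusted p under 0.05, against 15.5%, and in 2 of 8 the groups did not overlap, against 20.2%. With enzalutamide plus PF-543 over enzalutamide, 0 of 8 passed, against 0.0283%, 1 of 8 (KLHL24) had an unadjusted p under 0.05, against 7.83%, and 2 of 8 did not overlap, against 24%. With enzalutamide plus PF-543 over enzalutamide plus ABC294640, 0 of 8 passed, against 0.0961%, 1 of 8 (KLHL24) had an unadjusted p under 0.05, against 7.21%, and 1 of 8 did not overlap, against 12.4%. With enzalutamide plus PF-543 over DMSO, 0 of 8 passed, against 2.02%, and 3 of 8 (PIK3IP1 and BCL6 higher, IRS2 lower) had an unadjusted p under 0.05, against 18.7%. In the mean of the PF-543 effects with and without enzalutamide, 0 of 8 passed, against 0.351%, and 2 of 8 had an unadjusted p under 0.05, against 14.3%: KLHL24 at 0.48 (SE 0.12, limma adjusted p = 0.115) and PIK3IP1 at 0.36 (SE 0.11, limma adjusted p = 0.174). These counts of 1 to 3 rest on 8 genes.

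Where enzalutamide was the added drug, the same 8 genes were counted, since CCNG2 and TSC22D3 had been chosen on arrays that are subtracted here. With enzalutamide over DMSO, 0 of 8 passed in limma, against 0.311% of all genes, 3 of 8 had an unadjusted p under 0.05 (BCL6 higher, IRS2 and KLHL24 lower), against 12.9%, and 4 of 8 did not overlap, against 28.1%. With enzalutamide plus PF-543 over PF-543, 0 of 8 passed, against 0.311%, 2 of 8 had an unadjusted p under 0.05 (IRS2 and INSR, both lower), against 8.27%, and 3 of 8 did not overlap, against 14.6%. In the mean of these 2 enzalutamide effects, 0 of 8 passed, against 0.882%, and 2 of 8 had an unadjusted p under 0.05 (BCL6 higher, IRS2 lower), against 13%. With enzalutamide plus ABC294640 over DMSO, 0 of 8 passed, against 0.701%, and 5 of 8 had an unadjusted p under 0.05 (PIK3IP1 and BCL6 higher, IRS2, KLHL24 and FOXO3 lower), against 16%. With enzalutamide plus ABC294640 over enzalutamide, 0 of 8 passed and 0 of 8 had an unadjusted p under 0.05 in limma, against 0% and 6.78% of all genes. The comparisons with DMSO share their 3 DMSO arrays, so their counts are not independent of each other.

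**Figure D3:**
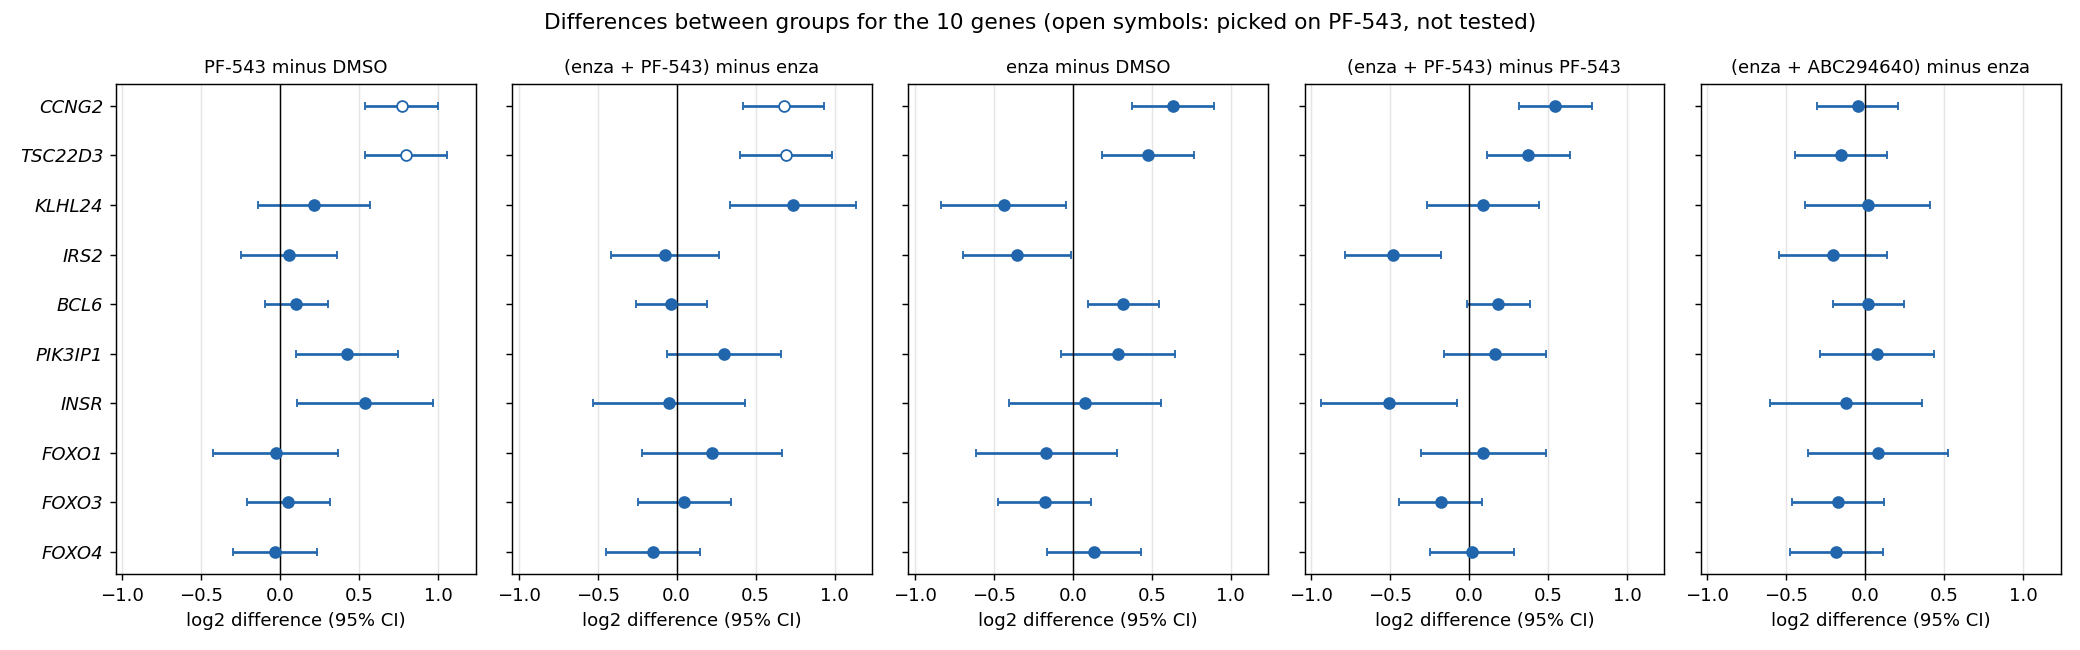
Log2 differences with 95% intervals for the 10 genes in 5 comparisons, each panel titled with the group on top first. Open symbols mark CCNG2 and TSC22D3 where PF-543 was the added drug, and their values lie between 0.68 and 0.79, while in the last panel, enzalutamide plus ABC294640 minus enzalutamide, all 10 intervals include 0.

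A wider list of 40 FOXO target genes, 36 of them measured, was set beside these. The list was not sorted by whether FOXO factors raise or lower each gene. Its counts of higher and lower genes and its medians thus give directions of RNA, not of FOXO activity. With PF-543 over DMSO, 1 of 36 rose and 0 fell in limma, against 0.565% of all genes called, and 10 had an unadjusted p under 0.05 (8 higher), against 15.5%, with a median of 0.05 against −0.01 over all genes. The gene that rose was CDKN1A, which encodes the cyclin-dependent kinase inhibitor p21, by 0.77 (SE 0.14, limma adjusted p = 0.0321). This call was lost without any 1 of the 3 PF-543 arrays, DMSO array 2 or 3, or array 3 of enzalutamide plus PF-543, and with only the arrays compared. With enzalutamide plus PF-543 over enzalutamide, 0 of 36 passed and 8 had an unadjusted p under 0.05, all higher, against 7.83% of all genes, with a median of 0.08 against 0.005. With enzalutamide over DMSO, 0 of 36 passed and 7 had an unadjusted p under 0.05 (2 higher), against 12.9%, with a median of −0.07 against −0.01.

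Over the mean of the PF-543 effects, 2 of the 36 FOXO target genes rose, against 0.351% of all genes called in either direction. They were CDKN1A, by 0.75, and TRIB3, a pseudokinase that binds AKT, by 0.76, named after its values were seen. The CDKN1A call was lost without enzalutamide array 2 (adjusted p = 0.0534) and the TRIB3 call without array 1 (0.0643). Over the mean enzalutamide effect, 1 of the 36 rose and 2 fell, against 0.882% of all genes called: MXI1, a MYC antagonist, by 0.43, and CITED2 and TXNIP, with −0.36 and −0.60, all 3 named after their values were seen. MXI1 lost its call without enzalutamide array 2 (adjusted p = 0.0936), and CITED2 and TXNIP lost theirs without either enzalutamide array and under other settings.

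Of 42 genes of PI3K, AKT and insulin signalling, 36 were measured. With PF-543 over DMSO 0 of 36 passed in limma, and 6 had an unadjusted p under 0.05, against 15.5% of all genes, with a median of 0.07. With enzalutamide plus PF-543 over enzalutamide 0 passed and 5 had an unadjusted p under 0.05, against 7.83%, with a median of 0.00, and with enzalutamide over DMSO 0 passed and 10 had an unadjusted p under 0.05, against 12.9%, with a median of 0.01. In the mean enzalutamide effect IGF1R, the receptor for insulin-like growth factor 1, fell by 0.81 (limma adjusted p = 0.0141), which was lost without either enzalutamide array, and GRB10, an adaptor that restrains the insulin receptor, rose by 0.45 and lost its call without any 1 of the DMSO or enzalutamide arrays, those of enzalutamide plus PF-543, PF-543 arrays 1 and 2 or array 1 of enzalutamide plus ABC294640. Both were named after their values were seen, and they were the 1 that fell and the 1 that rose of the 36, against 0.882% of all genes called. In the mean PF-543 effect 1 of the 36 rose, TRIB3, given above, against 0.351%. IGF1R averaged 8.27 with enzalutamide plus PF-543, 8.95 with PF-543, 8.10 with enzalutamide and 9.02 with DMSO.

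TSC22D3 is also induced by steroid receptors, so 16 shared targets of the glucocorticoid and androgen receptors were listed, 12 of them measured. With enzalutamide over DMSO 3 of 12 fell and 0 rose, against 0.311% of all genes called, and 8 had an unadjusted p under 0.05 (1 higher), against 12.9%. The median was −0.41 against −0.01 over all genes, and those that fell were ZBTB16, a zinc finger transcription factor, at −2.32, TMPRSS2, an androgen-driven serine protease, at −1.06, and ERRFI1, an inhibitor of the EGF receptor, at −0.93. ERRFI1 lost its call without enzalutamide array 2, and ERRFI1 and TMPRSS2 lost theirs with only the arrays compared (adjusted p = 0.141 and 0.117). TSC22D3 differed by 0.48 in that comparison, as given above, which was not called (limma adjusted p = 0.17). It subtracts the DMSO arrays on which TSC22D3 was chosen. Whether a steroid receptor acted on TSC22D3 here was not tested. With PF-543 over DMSO 0 of the 12 passed and 4 had an unadjusted p under 0.05 in limma, against 15.5%, with a median of 0.03, and with enzalutamide plus PF-543 over enzalutamide 0 passed and 3 had an unadjusted p under 0.05, against 7.83%, with a median of −0.11.

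**Figure D4:**
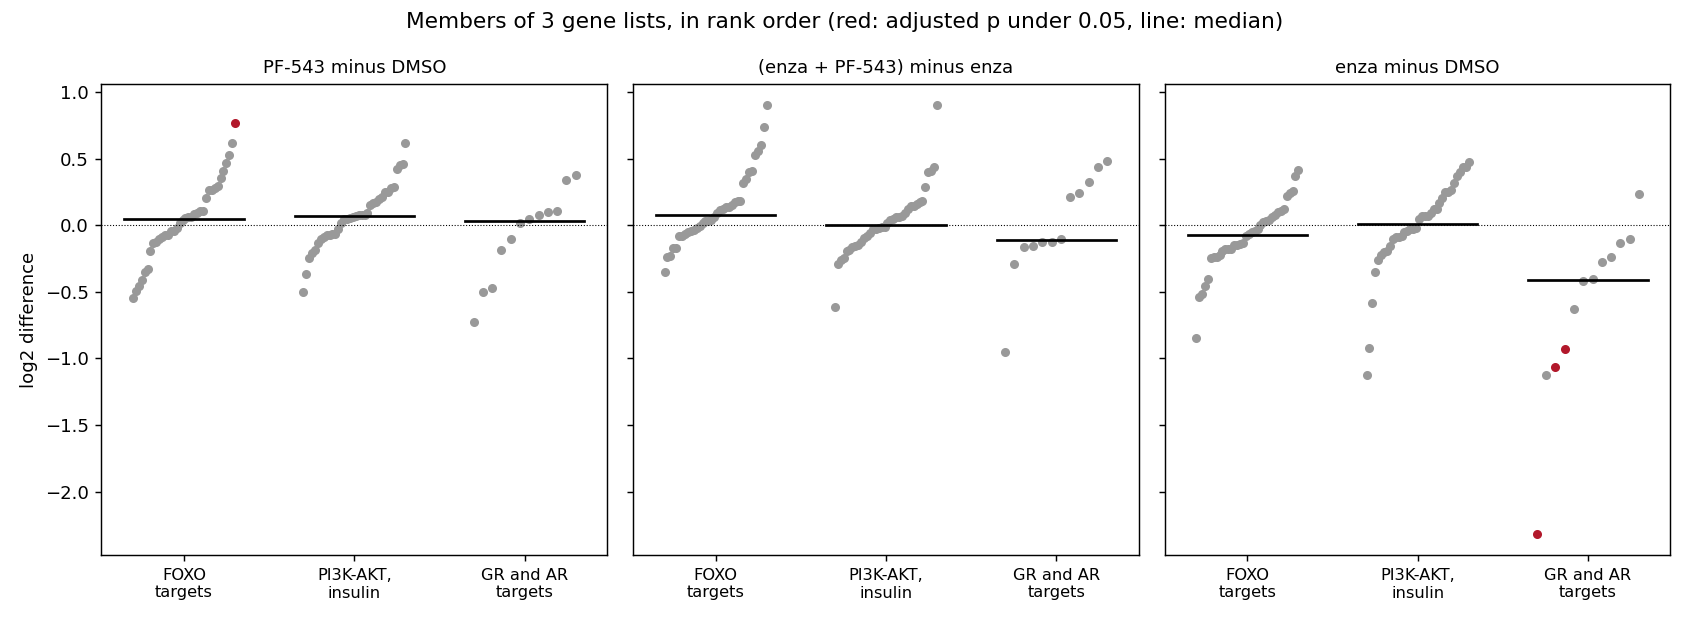
Log2 differences of the measured genes of 3 lists in 3 comparisons, each point a gene in rank order within its list, with the list's median (line) and genes past the adjusted threshold in red. In enzalutamide minus DMSO the median of the 12 receptor targets is −0.41, while the medians of the other lists lie between −0.07 and 0.08 in the 3 panels.

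All 16 close relatives of the 10 genes were measured, among them CCNG1, the other TSC22D genes, IRS1 and FOXO6. With PF-543 over DMSO 0 of 16 passed in limma and 2 had an unadjusted p under 0.05, against 15.5% of all genes. CCNG1 differed there by 0.10 (limma adjusted p = 0.615), TSC22D1 by −0.22, TSC22D2 by −0.23 and TSC22D4 by 0.19, beside 0.77 for CCNG2 and 0.79 for TSC22D3. CCNG2 and TSC22D3 were chosen for their rises with PF-543, so their larger values follow at least in part from the choice. With enzalutamide over DMSO 0 of 16 passed and 4 had an unadjusted p under 0.05, against 12.9%, and TSC22D1 stood at −0.54 (limma adjusted p = 0.189). In the mean enzalutamide effect 2 of 16 fell, against 0.882% of all genes called. They were IGF1R, given above, and KLHL20, at −0.37 (limma adjusted p = 0.0421), named after its values were seen. Neither passed without either enzalutamide array, and the count was 0 to 3 over the 24 settings.

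The gene whose levels followed CCNG2 most closely over the 15 arrays was TSC22D3, with a Pearson r of 0.953, and CCNG2 was in turn the gene closest to TSC22D3. DDIT4, an inhibitor of mTORC1 signalling, was next for CCNG2 with 0.951, followed by TMED10, PITPNB and SLC31A1 with 0.901, 0.889 and 0.887. For TSC22D3 the next were CLDN4 with 0.938, DDIT4 with 0.893, GDF15 with 0.889 and TMED10 with 0.885. After removing group means, r with CCNG2 was 0.72 for TMED10, 0.65 for TSC22D3, 0.61 for SLC31A1, 0.15 for PITPNB and −0.02 for DDIT4. With TSC22D3 it was then 0.54 for CLDN4, 0.49 for TMED10, 0.45 for DDIT4 and 0.33 for GDF15. DDIT4 thus followed CCNG2 mainly between groups on these few arrays. CCNG2 and TSC22D3 were both chosen for a rise with PF-543, so a high r between them follows in part from the choice. The values describe these arrays only. Among the 10 genes, r was 0.79 between CCNG2 and PIK3IP1, 0.76 between IRS2 and FOXO3, and −0.70 between IRS2 and BCL6.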

How the data were processed

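The authors deposited log2 expression for each probe set on 15 arrays, made with RMA in Transcriptome Analysis Console 4.02, per the submitters' processing notes. RMA fits arrays to 1 distribution, so a shift common to most genes is hidden. Array medians lay between 6.71 and 6.76, and no array repeated another. Detection calls were not used here, and the number of arrays limits the precision. Of 21448 probe sets 17709 had 1 gene symbol, and the brightest of each gene was kept. Group means were fitted to all arrays with limma 3.58.1 in R 4.3.3 (9 residual and 3.82 prior degrees of freedom), with p-values adjusted by Benjamini-Hochberg over the 17687 genes of each comparison and a threshold of 0.05, after checks on simulated data. The lone ABC294640 array thus borrows its spread from the others. The 10 genes, the lists and the tests were chosen with earlier results of these data known. From each list up to 3 genes past the threshold in a main comparison were to be named, with relatives of the 10 genes, and for CCNG2 and TSC22D3 the 5 genes of highest Pearson r. Sequences and positions are RefSeq's (GRCh38.p14), and the build of the probe sets is unknown here. Alternatives changed the normalization, filter, prior, weights and arrays.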

Additional observations from a re-analysis of the deposited data

How the results depend on the processing

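Of the 10 genes, CCNG2 and TSC22D3 included, 1 (CCNG2) passed for enzalutamide over DMSO. This became 0 with all probe sets, with array weights, with only the arrays compared and with the replicate block. It became 3 with a robust and trended prior: BCL6, and CCNG2 and TSC22D3, which had been chosen on these arrays. It was 0 to 1 when arrays were left out in turn. For enzalutamide plus PF-543 over PF-543 the count of 0 became 1 with quantile normalization and without the dimmest 25% of genes. It also became 1 with the robust prior and with array weights, and was 0 to 1 without single arrays. The gene that passed with each of these changes of processing was CCNG2, which had been chosen on arrays subtracted there. For enzalutamide plus PF-543 over DMSO, CCNG2 and TSC22D3 were not counted. The count of 0 of the other 8 became 1 with quantile normalization, without the dimmest genes and with the robust prior. It was 0 to 1 without single arrays. For enzalutamide plus ABC294640 over DMSO the count of 1, again CCNG2, became 2 with the robust prior, which added BCL6. It became 0 with only the arrays compared and 0 with the replicate block, and was 0 to 1 without single arrays. In the mean enzalutamide effect the count of 2 was CCNG2 and TSC22D3, and 0 of the other 8 passed. The count became 1 with median centring, all probe sets, only the arrays compared, the replicate block and a further demand of 1.5-fold. With the robust prior it became 3, which added BCL6, and it was 1 to 2 without single arrays. CCNG2 and TSC22D3 were chosen on arrays subtracted in these comparisons, so their calls are no separate support. In the mean PF-543 effect the count of 0 of the same 8 genes became 1 with the robust prior. The share of all genes called under each setting was not counted, so these counts cannot be set against it. The causes were not tested.

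Leaving out single arrays turned the sign of 6 uncalled values. INSR for enzalutamide plus PF-543 over enzalutamide ran from −0.13 to 0.035, CCNG2 for enzalutamide plus ABC294640 over enzalutamide from −0.23 to 0.14, and the CCNG2 difference of PF-543 effects from −0.27 to 0.10. For PF-543 over DMSO, FOXO1 ran from −0.18 to 0.12, FOXO3 from −0.0033 to 0.12 and FOXO4 from −0.17 to 0.10, and FOXO1 was 0.005 with quantile and 5e-04 with cyclic loess normalization. Over the 24 settings the FOXO target list, with 1 gene past the threshold for PF-543 over DMSO, had 0 to 3, and 0 to 2 for enzalutamide over DMSO against 0. The PI3K list had 0 to 3 and 0 to 5 there, against 0 and 0. The receptor targets had 0 to 1 against 0 for PF-543 over DMSO, and 1 to 6 against 3 for enzalutamide over DMSO. The highest counts came with the robust prior, under which the share of all genes called was not counted. The labels' replicate numbers did not pair arrays: of 26 same-numbered pairs 0 had deviations correlated above 0.1 (median −0.005), so the replicate block shows only what the number as a term would do. With 2 enzalutamide arrays and 1 ABC294640 array, each value that rests on them depends on single arrays.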
